A study of Homo sapiens with 12 samples.

Results

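PC9 is an established human lung adenocarcinoma cell line, and HOXC6 is a homeobox transcription factor of the HOXC cluster. PC9 cells that carried a lentiviral HOXC6 vector (PC9-HOXC6) were compared with PC9 cells that carried the empty pCDH-NEO vector (PC9-NEO), with 3 RNA-seq libraries a group. These are 6 of the 12 libraries of the series, chosen by their labels, and the other 6 are the same 2 vectors in the A549 lung line. Both PC9 groups passed through infection and neomycin medium and were kept in DMEM with serum, so the HOXC6 insert is the only difference the labels give. The text does not say whether a stably infected line was 1 clone or a mixture. It calls the 3 replicates of the libraries independent, but not whether the 3 libraries of a group came from separate cultures is stated. The p-values therefore measure the spread between libraries, which may be technical.

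HOX proteins bind short AT-rich DNA elements through their homeodomain, often together with cofactors of the TALE class (PBX, MEIS and PKNOX), and set regional identity in the embryo. In adult epithelia and carcinomas, members of the family are often expressed again, and they raise some genes and lower others. PC9 grows under an activated EGF receptor, so genes of proliferation, of EGF receptor signalling and of adhesion are those usually read in this line.

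Read counts per gene were the measure, and levels are given as CPM, a gene's count scaled to a common library total after TMM normalization. The count table held 12584 genes with complete entries, and 8419 of them had enough counts in PC9 to be tested. HOXC6 itself was not analysed here, so the labels could not be checked on the gene that the vector carries. The libraries held 1768574 to 2233100 counts in PC9-NEO and 1363070 to 3286577 in PC9-HOXC6, and 3 counts, the floor of detection, equal 0.942 to 2.28 CPM. Epithelial markers were abundant, with 7 of 10 in the table and a summed level of 11904 to 12702 CPM in PC9-NEO and 11864 to 12144 CPM in PC9-HOXC6. The 6 markers of lung adenocarcinoma (NKX2-1, NAPSA, SFTPB, SFTPC, SFTPA1 and SCGB1A1) summed to only 4.997 to 6.10 and 7.22 to 9.43 CPM, and none had enough counts to be tested. Of 9 fibroblast markers 8 were at or below 3 counts in all 6 libraries, as were 3 of 4 endothelial markers and the 3 markers of the embryonic kidney cells used for packaging, which were at 0.

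A gene was called when its adjusted p (edgeR quasi-likelihood test, Benjamini-Hochberg) was under 0.05 and its log2 fold change passed 1 in either direction. In PC9-HOXC6, 81 genes (0.962% of those tested) were called higher and 300 (3.56%) were called lower. At an adjusted p under 0.05 and any size, which is what rose and fell mean below, 1123 genes (13.3%) rose and 1193 (14.2%) fell. The counts of each gene group below are to be read against these shares. The called genes were mostly of modest abundance, with a median of 18.7 CPM among those higher and 18.01 CPM among those lower, against 47.8 CPM over all genes tested. The 3 PC9-HOXC6 libraries lay above all PC9-NEO libraries in 80 of the 81 genes called higher, and the groups overlapped in 7 of the 300 called lower. Over all genes tested the groups did not overlap in 19.6% (above) and 20.3% (below). In bulk RNA, fewer cells of one kind and less RNA per cell cannot be told apart.

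The changes followed the base composition of the transcripts. Genes were placed by the GC content of their longest annotated transcript, and across 8360 genes the log2 fold change rose with GC content (Spearman's rho 0.52, across genes, which are not independent replicates and share the libraries). Genes were ranked into 10 equal groups. In the group with the least GC (30.2 to 38.2%), the median log2 fold change was -0.47, and 147 of 836 genes (17.6%) were called lower and 0 higher. In the group with the most GC (61.4 to 72.7%), the median was 0.18, with 2 genes called lower and 17 higher. The median GC content was 57.3% among the genes called higher, 38.3% among those called lower and 48.1% over all genes tested. Counted at any size, 920 genes rose at or above this last median and 197 below it. Each library showed the trend, and the groups did not overlap: the lowest group took 4.13 to 4.42% of the counts in the PC9-NEO libraries and 3.01 to 3.08% in the PC9-HOXC6 libraries. The trend therefore separates the vectors completely, and its source cannot be told apart from the vector in these 6 libraries.

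**Figure D1:**
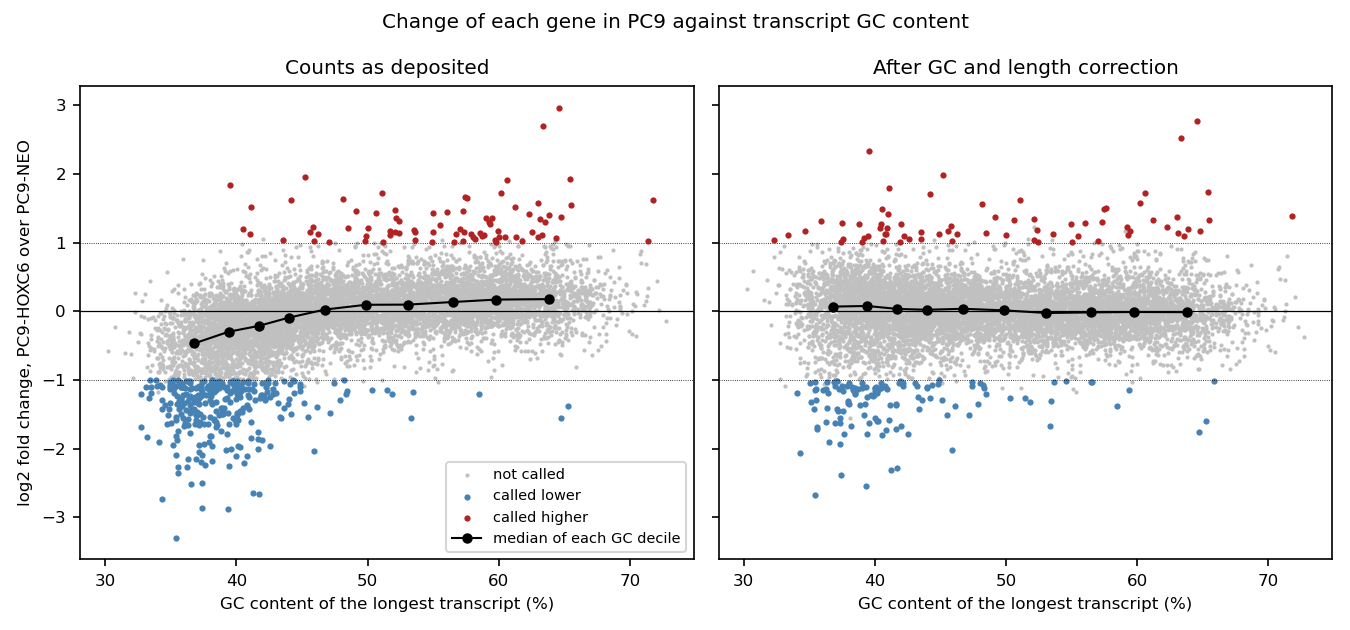
Log2 fold change of each gene (PC9-HOXC6 over PC9-NEO) against the GC content of its longest transcript in percent, for the counts as deposited (left) and after correction for GC content and length (right). Grey points are genes not called, blue points genes called lower, red points genes called higher, and black points the medians of the 10 GC groups, which run from -0.47 to 0.18 on the left and lie within 0.08 of 0 on the right.

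A second fit removed from each library a smooth trend on GC content and transcript length, and it also removes any response to HOXC6 that follows GC content. After it, rho was -0.06, and 71 genes (0.843%) were called higher and 125 (1.48%) lower. At any size, 980 genes (11.6%) rose and 818 (9.72%) fell. Genes called higher made up 21.3% of the calls without the correction and 36.2% with it. Both fits called 48 genes higher and 117 lower, and all 381 genes called without the correction kept their direction. Of 1177 genes with an adjusted p under 0.05 in both fits, 10 changed direction, and RAD21 and CD46 are named below with both values. The values after this correction are called corrected and stand beside the results. Of the 8419 genes tested, the 8360 with an annotated transcript were corrected, and the others stayed uncorrected.

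The letters show how far these transcripts differ. Each line gives 90 bases of coding sequence (GENCODE transcripts on GRCh37), taken where the GC content is closest to that of the gene's longest transcript, with G and C in capitals. CENPE (chromosome 4 from 104026506 to 104119602) and NIPBL (chromosome 5 from 36876871 to 37066515) are low in GC and fell. CDC42EP5 (chromosome 19 from 54976210 to 54984443) and AVPR2 (chromosome X from 153167985 to 153172620) are high in GC and rose. SGK1 (chromosome 6 from 134490386 to 134639250) and SERPINE2 (chromosome 2 from 224839762 to 224904035) are low in GC and rose, and GABBR2 (chromosome 9 from 101050391 to 101471217) is above the median and fell, so these 3 went against the trend.
CENPE: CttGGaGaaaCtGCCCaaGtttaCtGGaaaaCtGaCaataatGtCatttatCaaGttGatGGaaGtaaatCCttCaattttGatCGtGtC
NIPBL: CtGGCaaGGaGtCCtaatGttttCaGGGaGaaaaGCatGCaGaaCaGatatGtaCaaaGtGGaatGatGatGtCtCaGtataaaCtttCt
CDC42EP5: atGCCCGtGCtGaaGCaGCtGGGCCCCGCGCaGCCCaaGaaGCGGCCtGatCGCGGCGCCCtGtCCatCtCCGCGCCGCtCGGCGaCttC
AVPR2: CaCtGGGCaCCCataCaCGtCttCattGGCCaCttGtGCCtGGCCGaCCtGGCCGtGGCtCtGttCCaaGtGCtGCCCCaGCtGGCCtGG
SGK1: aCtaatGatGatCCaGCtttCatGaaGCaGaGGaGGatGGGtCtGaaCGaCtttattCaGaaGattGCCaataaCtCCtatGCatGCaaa
SERPINE2: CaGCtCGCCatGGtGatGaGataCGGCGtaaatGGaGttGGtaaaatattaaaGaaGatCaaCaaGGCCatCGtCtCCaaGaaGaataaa
GABBR2: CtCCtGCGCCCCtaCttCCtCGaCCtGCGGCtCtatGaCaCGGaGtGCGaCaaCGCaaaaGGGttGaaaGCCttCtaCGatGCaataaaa
In these 90 bases, G and C number 32 for CENPE, 35 for NIPBL, 37 for SGK1 and for SERPINE2, 48 for GABBR2, 58 for AVPR2 and 65 for CDC42EP5.

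AVPR2, the V2 vasopressin receptor, had the largest rise, with 3, 1 and 4 counts in the PC9-NEO libraries and 23, 12 and 36 in the PC9-HOXC6 libraries, a log2 fold change of 2.97 ± 0.47, adjusted p = 1.8e-05, corrected 2.77 (± is the standard error throughout). MRC2, an endocytic collagen receptor, was at 1.67, 2.07 and 1.74 CPM in the PC9-NEO libraries and 8.94, 13.7 and 13.8 CPM in the PC9-HOXC6 libraries, a change of 2.698 ± 0.43, adjusted p = 1.8e-05, corrected 2.52. Both were close to the floor in PC9-NEO, and the groups did not overlap.

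UNC5B, a netrin receptor, rose from a well measured level: 27.2, 29.5 and 31.4 CPM in the PC9-NEO libraries and 89.4, 115 and 92.9 CPM in the PC9-HOXC6 libraries. Its change was 1.73 ± 0.14, adjusted p = 2.1e-10, corrected 1.58. RHOU, an atypical small GTPase, went from 6.11, 11.9 and 6.98 to 40.7, 22.02 and 32.01 CPM (1.95 ± 0.27, adjusted p = 2e-06, corrected 1.99), and CDC42EP5, an effector of CDC42, from 38.9, 36.3 and 50.6 to 127, 129 and 132 CPM (1.62 ± 0.12, adjusted p = 4.7e-11, corrected 1.39). SPOCK1, a matrix proteoglycan, stood at 14.4, 9.32 and 11.8 CPM in the PC9-NEO libraries and 42.2, 29.6 and 35.8 CPM in the PC9-HOXC6 libraries (1.62 ± 0.22, adjusted p = 1.9e-06). In all 4 genes the groups were separate.

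Other genes called higher with these were RHCG, an ammonia transporter (1.67 ± 0.31, adjusted p = 0.00014), CASP14, the caspase of cornified skin (1.64 ± 0.34, adjusted p = 0.00057), and CPA4, a secreted carboxypeptidase (1.46 ± 0.27, adjusted p = 0.00012). ARHGAP4, which inactivates small GTPases, rose by 1.54 ± 0.27, adjusted p = 6.1e-05. At lower levels, PNPLA7, a lysophospholipase (1.93 ± 0.42, adjusted p = 0.00085), TUBB4A, a beta-tubulin (1.92 ± 0.45, adjusted p = 0.0016), PLA2R1, a phospholipase receptor (1.84 ± 0.47, adjusted p = 0.004), SARDH, the mitochondrial sarcosine dehydrogenase (1.58 ± 0.34, adjusted p = 0.00071) and TMEM63C (1.66 ± 0.39, adjusted p = 0.0018) were called. The gene listed as ENSG00000129270, which the annotation used here does not name, rose by 2.03 ± 0.47, adjusted p = 0.0016. It has no annotated transcript, so the correction left it as it was. All of the other genes in this paragraph were also called after the correction.

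Genes low in GC that rose against the trend had larger corrected than uncorrected changes. SERPINE2, a secreted inhibitor of thrombin and plasminogen activators, was at 286, 306 and 292 CPM in the PC9-NEO libraries and 651, 646 and 635 CPM in the PC9-HOXC6 libraries. Its change was 1.13 ± 0.07, adjusted p = 3.2e-13 and 1.42 ± 0.06 corrected. SGK1, a kinase induced by corticoids, was at 18.9, 16.6 and 20.5 CPM in the PC9-NEO libraries and 47.7, 54.7 and 58.1 CPM in the PC9-HOXC6 libraries (1.52 ± 0.17, adjusted p = 9.1e-08, corrected 1.79). UFSP2, a protease of the ubiquitin-like modifier UFM1, was at 19.99, 32.1 and 25.3 CPM in the PC9-NEO libraries and 63.1, 65.3 and 53.7 CPM in the PC9-HOXC6 libraries (1.21 ± 0.17, adjusted p = 2.5e-06, corrected 1.49), and 909 bases of its exons overlap a gene on the other strand.

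**Figure D2:**
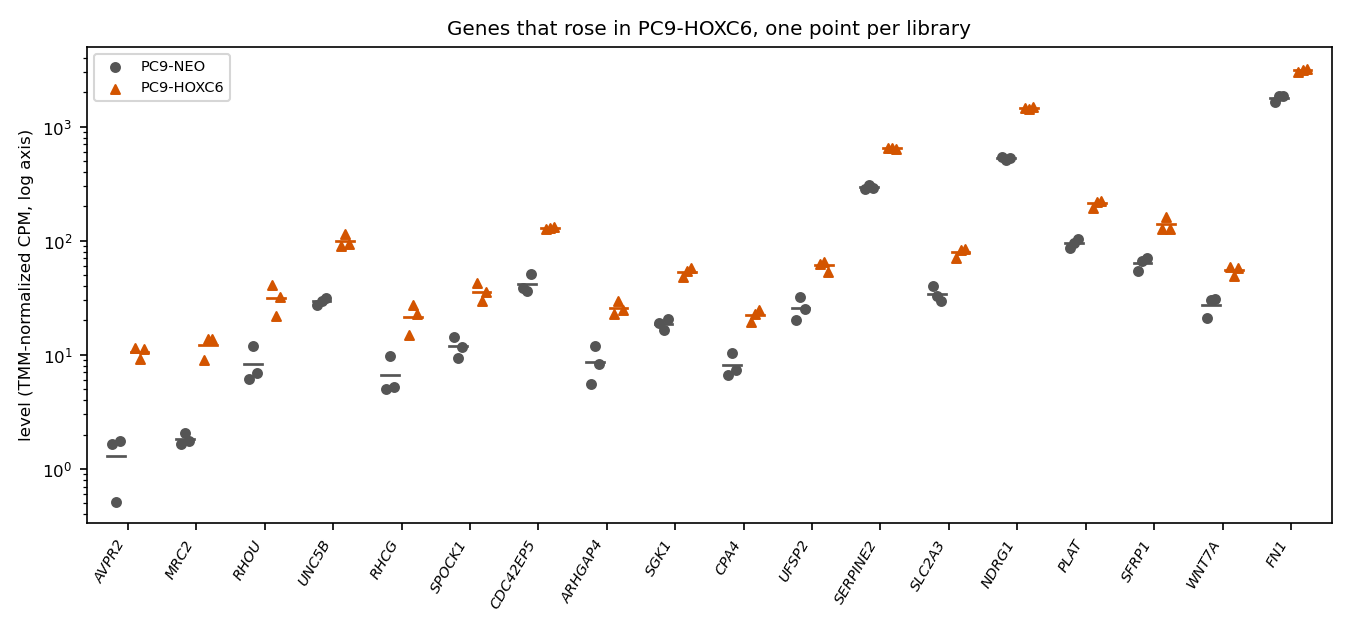
TMM-normalized CPM on a log axis for 18 genes that rose in PC9-HOXC6, with 1 point a library (grey circles PC9-NEO, orange triangles PC9-HOXC6, 3 each) and a line at each group's mean. The groups do not overlap in any of these genes.

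CENPE and CWF19L2 were the genes called lower whose PC9-HOXC6 libraries were all at the floor. CENPE, the kinetochore kinesin, was counted 17, 14 and 18 times in the empty-vector libraries and 2, 2 and 1 times with HOXC6, where all libraries were at or under 3 counts, so it was at least 5.21-fold lower. CWF19L2, a splicing-related protein, had 19, 16 and 15 and 1, 3 and 3 counts and was at least 5.39-fold lower. NPAT, the coactivator of histone genes in S phase, was at 9.44, 7.25 and 10.9 CPM in the PC9-NEO libraries and 1.49, 0.759 and 1.26 CPM in the PC9-HOXC6 libraries (-2.86 ± 0.49, adjusted p = 5.1e-05, corrected -2.38). No library of one group reached the other in these 3 genes.

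RAD50, a subunit of the MRE11 complex that senses DNA breaks, fell from 29.4, 40.4 and 33.6 to 5.46, 3.797 and 6.28 CPM (-2.64 ± 0.26, adjusted p = 8e-09, corrected -2.32), and 243 bases of its exons overlap an antisense gene. SMC6, of the SMC5/6 complex, went from 31.1, 27.5 and 20.1 to 4.47, 8.35 and 4.71 CPM (-2.24 ± 0.30, adjusted p = 1.1e-06, corrected -1.78). ZC3H13, a partner of the RNA methyltransferase for m6A, went from 90.5, 89.6 and 97.7 to 18.9, 25.8 and 24.5 CPM (-2.01 ± 0.15, adjusted p = 1.9e-11, corrected -1.71). The libraries of the 2 groups were separate in all 3 genes.

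Other genes among the largest falls were ZNF268 (-2.66 ± 0.54, adjusted p = 0.00036), N4BP2 (-2.52 ± 0.44, adjusted p = 5.6e-05), the golgin TRIP11 (-2.51 ± 0.42, adjusted p = 3.6e-05), ANKRD12, a corepressor-binding protein (-2.36 ± 0.51, adjusted p = 0.00079), PHIP, a chromatin reader (-2.27 ± 0.22, adjusted p = 5.7e-09), USP16, a histone H2A deubiquitinase (-2.26 ± 0.33, adjusted p = 4.4e-06), and RBAK, a repressor that binds RB1 (-2.01 ± 0.32, adjusted p = 1.6e-05). Each was also called after the correction. ALDH1A1, a retinaldehyde dehydrogenase with a GC content of 41.98%, was at 34.98, 43.5 and 36.2 CPM in the PC9-NEO libraries and 10.4, 8.35 and 11.3 CPM in the PC9-HOXC6 libraries (-1.88 ± 0.22, adjusted p = 1.1e-07, corrected -1.67). GABBR2, a GABA-B receptor subunit with a GC content of 53.3%, was at 17.8, 18.6 and 19.2 CPM in the PC9-NEO libraries and 4.47, 7.59 and 6.905 CPM in the PC9-HOXC6 libraries (-1.55 ± 0.29, adjusted p = 0.00017, corrected -1.67).

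**Figure D3:**
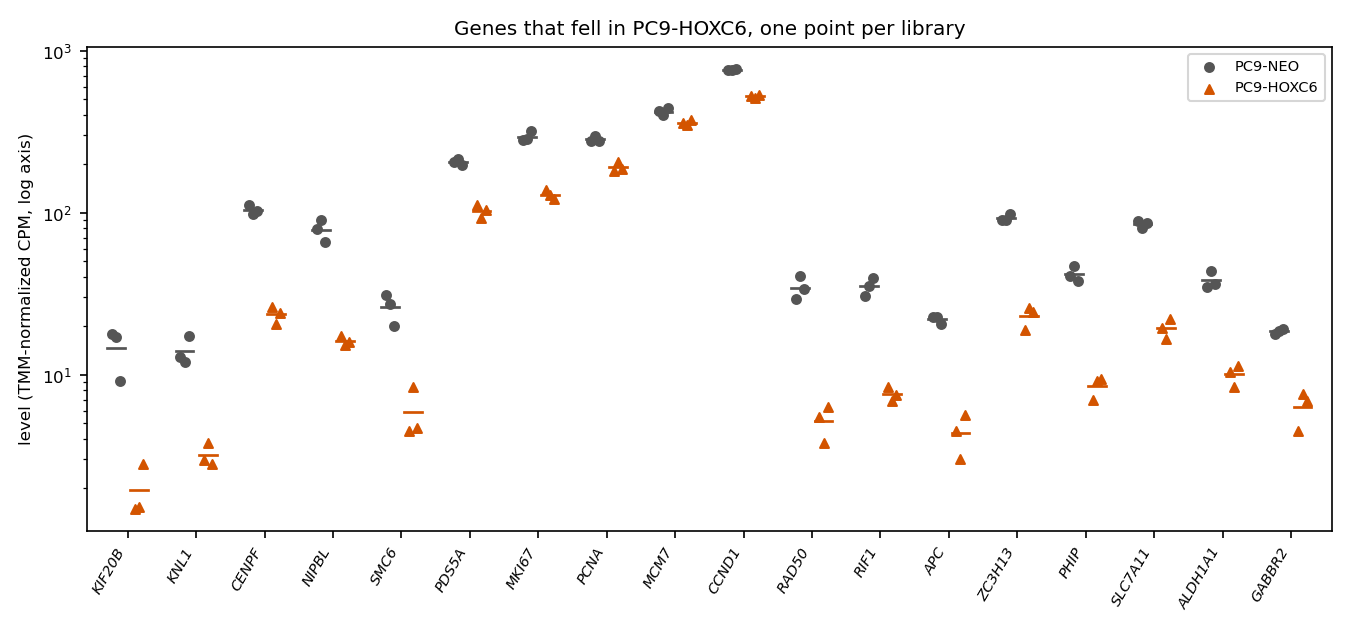
TMM-normalized CPM on a log axis for 18 genes that fell in PC9-HOXC6, with 1 point a library (grey circles PC9-NEO, orange triangles PC9-HOXC6, 3 each) and a line at each group's mean. The PC9-HOXC6 libraries lie below the PC9-NEO libraries in every gene shown, from KIF20B near the floor to CCND1 at 507 to 770 CPM.

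The cell division machinery was the functional group with most calls. Of 86 mitosis and kinetochore genes tested, 25 were called lower (29.1%) and 0 higher, 36 fell and 1 rose, and the median log2 fold change was -0.34, against -0.0046 over all genes tested. After the correction 16 were called lower, 38 fell, 1 rose, and the median was -0.34. The median GC content of the members was 41.9%. Of the 60 members below the median GC content of all genes, 24 were called lower (40.00%, against 6.91% of all genes below it), and of the 26 at or above it, 1 was (3.85%, against 0.263%). The study itself measured faster proliferation of PC9-HOXC6 than of PC9-NEO cells, by live imaging and by CFSE flow cytometry. RNA levels do not measure the rate of division.

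At the kinetochore, which ties chromosomes to spindle fibres, 7 of 23 genes fell. CENPF, a large kinetochore protein of late cell cycle stages, was at 111, 97.4 and 102 CPM in the PC9-NEO libraries and 26.3, 20.5 and 23.9 CPM in the PC9-HOXC6 libraries (-2.11 ± 0.14, adjusted p = 3.6e-12, corrected -1.73). KNL1, the scaffold of the kinetochore, was at 12.8, 11.9 and 17.4 CPM in the PC9-NEO libraries and 2.98, 3.797 and 2.82 CPM in the PC9-HOXC6 libraries (-2.18 ± 0.37, adjusted p = 4.1e-05, corrected -1.67). NUF2 (-1.74 ± 0.35) and CENPK (-1.69 ± 0.36) were also called lower, and 16 of the 23 did not pass the test. The call on CENPK was not made after the correction (-0.98).

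Among mitotic kinesins and spindle proteins, 9 of 20 were called lower. KIF20B, a kinesin of cytokinesis, was at 17.8, 17.1 and 9.16 CPM in the PC9-NEO libraries and 1.49, 1.52 and 2.82 CPM in the PC9-HOXC6 libraries (-2.73 ± 0.42, adjusted p = 1.2e-05, corrected -2.07). ASPM, which focuses spindle poles (-2.05 ± 0.23), KIF15 (-1.84 ± 0.38), KIF18A (-1.67 ± 0.38), HMMR (-1.65 ± 0.22), KIF14 (-1.57 ± 0.25) and KIF11, the kinesin that separates the poles (-1.16 ± 0.16), fell with it. KIF11 was not called after the correction (-0.81), and 9 of the 20 did not pass the test, among them TPX2, a spindle assembly factor with a GC content of 46.8% (-0.08 ± 0.08).

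Cohesin and condensin, the rings that hold and compact chromosomes, formed 1 of the 4 roles in the list together with other chromosome proteins. It had the lowest median, with 14 of 20 genes falling and a median of -0.995. NIPBL, which loads cohesin, was at 78.8, 89.6 and 65.8 CPM in the PC9-NEO libraries and 17.4, 15.2 and 16.01 CPM in the PC9-HOXC6 libraries (-2.25 ± 0.17, adjusted p = 3.2e-11, corrected -1.79). SMC3 of cohesin (-1.81 ± 0.25, corrected -1.35), SMC2 and SMC4 of condensin (-1.64 ± 0.26 and -2.098 ± 0.14), and PDS5A, a cohesin regulator at 205, 215 and 198 CPM in the PC9-NEO libraries and 111, 92.7 and 104 CPM in the PC9-HOXC6 libraries (-0.99 ± 0.09, adjusted p = 1.9e-09, corrected -0.68), fell with it. RAD21, the cohesin kleisin, fell by 0.26 ± 0.08, adjusted p = 0.021 as counted and was higher after the correction (0.35, adjusted p = 0.0014), so its direction depends on the fit. As counted, RAD21 lost its significance without PC9-HOXC6 replicate 1 (-0.25), PC9-HOXC6 replicate 3 (-0.20) or PC9-NEO replicate 2 (-0.18). MKI67, the proliferation antigen, has a GC content close to the median (48.3%) and was at 280.4, 285 and 318 CPM in the PC9-NEO libraries and 137, 128 and 122 CPM in the PC9-HOXC6 libraries, a change of -1.198 ± 0.08, adjusted p = 1.1e-11 and -1.12 ± 0.08 corrected. It was the 1 member with GC content at or above the median that was called lower.

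The mitotic kinases and cyclins held fewer calls, 2 of 23. TTK, the checkpoint kinase (-1.37 ± 0.29, adjusted p = 0.0005, corrected -1.11), and PLK4, which starts centriole copying (-1.34 ± 0.33, adjusted p = 0.0028, corrected -0.92), were called lower. Of the other 21 genes, 2 fell and 1 rose by less than the threshold. PLK1, the polo-like kinase (-0.12 ± 0.11), CCNB1, cyclin B1 (-0.14 ± 0.09), and CDC20, which activates the anaphase-promoting complex (-0.12 ± 0.09), did not pass the test as counted, and CDC20 was lower after the correction (-0.29, adjusted p = 0.012).

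Promoters of mitotic genes often hold a TTTGAA element, known as CHR, through which they are kept off outside late cell cycle stages. Of 72 tested members with a RefSeq promoter (GRCh38.p14, the 250 bases before the start), 26 held TTTGAA on either strand (36.1%), and of 23 called lower 10 did (43.5%). The share was 7.86% of the 6834 tested genes with a promoter and 13.6% of all 27305 promoters. The sites of 4 called genes are given with the element in capitals, as TTTGAA or its reverse complement TTCAAA, written 5′ to 3′ along the gene.
ASPM (chr1:197146765-197146794, minus strand): cggatgcaatcaTTCAAAtgaagcgccgcc
KIF11 (chr10:92593090-92593119, plus strand): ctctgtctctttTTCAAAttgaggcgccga
KIF15 (chr3:44761747-44761776, plus strand): ccaagcgccaaaTTCAAAtttgcggccatc
MKI67 (chr10:128126435-128126464, minus strand): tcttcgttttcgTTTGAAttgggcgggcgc
A match says only that these letters are there.

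Of 69 DNA replication genes tested, 18 fell and 2 rose (26.1% and 2.90%, against 14.2% and 13.3% of all genes), with a median of -0.25 before and -0.24 after the correction, when 21 fell and 1 rose. The 3 calls were NPAT, CLSPN and ORC3, and ORC3, of the origin recognition complex, was not called after the correction (-1.1002 ± 0.32, corrected -0.75). ORC3 lost its call without PC9-HOXC6 replicate 3 (-0.998). PCNA, the sliding clamp of DNA polymerases, was at 275, 299 and 277 CPM in the PC9-NEO libraries and 181, 207 and 187 CPM in the PC9-HOXC6 libraries (-0.58 ± 0.08, adjusted p = 2e-06, corrected -0.54). CCND1, the cyclin that starts G1, was at 755, 761 and 769.6 CPM in the PC9-NEO libraries and 527, 507 and 533 CPM in the PC9-HOXC6 libraries (-0.54 ± 0.06, adjusted p = 5.6e-08, corrected -0.65). The libraries of the 2 groups did not overlap in either gene.

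The MCM helicase and chromatin assembly genes moved by less than the threshold. MCM4, a helicase subunit, fell by 0.45 ± 0.10, adjusted p = 0.00095, corrected -0.46. MCM7, of the same ring, was at 422, 398 and 439 CPM in the PC9-NEO libraries and 356, 349 and 374 CPM in the PC9-HOXC6 libraries (-0.22 ± 0.07, adjusted p = 0.016, corrected -0.40). MCM7 lost its significance without PC9-HOXC6 replicate 1 (-0.20), PC9-HOXC6 replicate 2 (-0.19) or PC9-NEO replicate 3 (-0.18). FEN1, the flap nuclease (-0.50 ± 0.14, adjusted p = 0.007, corrected -0.63), and CHAF1A, of the histone chaperone CAF-1 (-0.48 ± 0.13, adjusted p = 0.0048, corrected -0.66), fell. FEN1 lost its significance without PC9-HOXC6 replicate 1 (-0.37). RRM1, of ribonucleotide reductase (-0.52 ± 0.11), also fell. CLSPN, a replication checkpoint adaptor, was called lower (-1.28 ± 0.34, adjusted p = 0.0052, corrected -1.104). CLSPN lost its call without PC9-NEO replicate 3 (-1.02). MCM2 did not pass the test as counted (-0.13 ± 0.08) and was lower after the correction (-0.31, adjusted p = 0.0037).

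DNA repair genes that fell were GC-poor, as were most genes that fell over all tested (1032 below the median GC content, 154 at or above it). Of 52 repair genes tested, 10 were called lower and 0 higher, and 17 fell. All 17 were among the 37 members below the median GC content, and 0 of the 15 others passed the test. After the correction 3 were called lower (RAD50, RIF1 and REV3L) and 8 fell. RIF1, which protects broken ends and times replication, was at 30.5, 35.2 and 39.7 CPM in the PC9-NEO libraries and 8.44, 6.84 and 7.53 CPM in the PC9-HOXC6 libraries (-2.196 ± 0.24, adjusted p = 3.2e-08, corrected -1.55). Of the other subunits of RAD50's complex, MRE11 changed by -1.102 ± 0.30, adjusted p = 0.0061, corrected -0.65 (adjusted p = 0.13), and NBN by -0.92 ± 0.21, adjusted p = 0.001, corrected -0.28 (adjusted p = 0.36). MRE11 lost its call without PC9-NEO replicate 2 (-0.96).

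REV3L and REV1, translesion polymerases, changed by -1.55 ± 0.29, adjusted p = 0.00014 and -0.95 ± 0.15, adjusted p = 2.2e-05, corrected -1.11 and -0.79. BRCA1 fell by 1.2005 ± 0.24, adjusted p = 0.00036, corrected -0.98. PARP1, a sensor of strand breaks (0.16 ± 0.07), did not pass the test. The call on FANCL, the E3 ligase of the Fanconi pathway with a GC content of 33.1%, was lost after the correction (-1.098 ± 0.14, adjusted p = 4.2e-07, corrected -0.32, adjusted p = 0.097). FANCL lost its call without PC9-NEO replicate 1 (-0.97).

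Of 62 centrosome and cilium genes, 10 were called lower and 0 higher, 6 after the correction. Of 31 centriole and pericentriolar genes 13 fell (41.9%), and of 31 genes of cilium transport and gating 4 fell (12.9%, against 14.2% of all genes), with a median of -0.04. PCM1, the core of centriolar satellites, was at 51.1, 59.6 and 46.7 CPM in the PC9-NEO libraries and 14.9, 16.7 and 14.4 CPM in the PC9-HOXC6 libraries (-1.79 ± 0.18, adjusted p = 1.3e-08, corrected -1.35). CEP350 (-1.75 ± 0.25, corrected -1.36), AKAP9 (-1.69 ± 0.32, corrected -1.12) and CEP128 (-1.96 ± 0.52, corrected -1.78) were called in both fits, as were IFT80 (-1.63 ± 0.22) and IFT81 (-1.48 ± 0.37) of the intraflagellar transport train. CEP128 lost its call without PC9-HOXC6 replicate 3 (-1.74). All 10 calls were among the 43 members below the median GC content. Below that median lay 289 of the 300 genes called lower over all genes tested.

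Of 28 golgins and vesicle tethers, 8 were called lower, and 3 after the correction (TRIP11, VPS13C and CLIP1). TRIP11, which holds the cis-Golgi together, was at 8.33, 18.6 and 13.1 CPM in the PC9-NEO libraries and 1.99, 3.04 and 2.197 CPM in the PC9-HOXC6 libraries. CLIP1, which tracks growing microtubule ends, was at 102, 90.1 and 89.4 CPM in the PC9-NEO libraries and 36.2, 43.3 and 43.6 CPM in the PC9-HOXC6 libraries (-1.19 ± 0.13, adjusted p = 3.9e-08, corrected -1.08). GOLGA2, or GM130, went the other way, from 214, 208 and 207 to 283, 245 and 268 CPM (0.35 ± 0.08, adjusted p = 0.0011, corrected 0.23). All 12 members that fell lay below the median GC content, as did most genes that fell over all tested (1032, against 154 at or above it).

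Of 86 chromatin regulators tested, 7 were called lower and 0 higher, 23 fell and 10 rose. All 7 calls and 21 of the 23 genes that fell were among the 44 members below the median GC content. Over all genes tested, 289 of the 300 called lower lay there, and 1032 fell there against 154 at or above it. The remodellers CHD1 (-1.81 ± 0.27, adjusted p = 5.6e-06, corrected -1.305) and ATRX (-1.65 ± 0.21, adjusted p = 6.6e-07, corrected -1.03), the bromodomain protein BAZ2B (-1.51 ± 0.33) and ARID4B of the SIN3 complex (-1.49 ± 0.20) were called in both fits. Histone methyltransferases and demethylases had 0 calls among 29 genes, of which 5 fell and 3 rose. In that set ASH1L, a methyltransferase, fell by 0.85 ± 0.13, adjusted p = 1e-05, corrected -0.62, while KDM1A, the demethylase of H3K4, rose from 446, 409 and 485 to 720.5, 709 and 696 CPM (0.66 ± 0.07, adjusted p = 9.4e-09, corrected 0.71), and KDM4B rose by 0.52 ± 0.12. HDAC5 (0.66 ± 0.10, corrected 0.48) rose.

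Many genes of the cytosolic ribosome rose by small amounts. Of 63 cytosolic ribosomal proteins and elongation factors tested, 43 rose (68.3%, against 13.3% of all genes), 1 fell (RPS27A, -0.23 ± 0.07) and 0 were called, with a median of 0.25. After the correction 29 rose, 0 fell and the median was 0.15. EEF2, which moves the ribosome along the mRNA, was at 4777, 4911 and 5126 CPM in the PC9-NEO libraries and 6138, 6104 and 6454 CPM in the PC9-HOXC6 libraries (0.34 ± 0.05, adjusted p = 2.3e-06, corrected 0.14). RPL13A was at 4595, 4637 and 5048 CPM in the PC9-NEO libraries and 5789, 5878 and 5871 CPM in the PC9-HOXC6 libraries (0.30 ± 0.05, adjusted p = 1.9e-05, corrected 0.16). RPL8 (0.30 ± 0.05, adjusted p = 1.7e-05) and RPL28 (0.29 ± 0.05, adjusted p = 5.9e-05) were like it as counted, but the corrected change of RPL8 (0.11) did not pass the test (adjusted p = 0.081). Ribosomal proteins low in GC had larger corrected changes, such as RPS20 (0.29 ± 0.06, corrected 0.58) and RPS3A (0.27 ± 0.07, corrected 0.54). RPS27A lost its significance without PC9-HOXC6 replicate 1 (-0.21), PC9-HOXC6 replicate 2 (-0.16), PC9-NEO replicate 2 (-0.20) or PC9-NEO replicate 3 (-0.22). Many ribosomal proteins have near-identical processed copies in the genome, so reads could be split among them.

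Mitochondrial ribosomal proteins did not move with them: 2 of 47 rose, 2 fell, and the median was -0.05. Of 56 respiratory chain subunits 8 rose and 3 fell, and 14 and 2 did after the correction. Of 34 proteasome genes 12 fell and 3 rose (6 and 4 corrected). PSMC3, an ATPase of the cap, was at 315, 305 and 342 CPM in the PC9-NEO libraries and 263, 245 and 265 CPM in the PC9-HOXC6 libraries (-0.31 ± 0.07, adjusted p = 0.0021, corrected -0.47), and PSMA7 of the core ring fell by 0.28 ± 0.07, adjusted p = 0.0029. RNA helicases of the DDX and DHX families fell in 12 of 38 genes and rose in 0. DHX9 (-0.55 ± 0.09, adjusted p = 2.3e-05, corrected -0.41) and DDX21 (-0.65 ± 0.10, adjusted p = 6.3e-06, corrected -0.40) are among them, and the list's median was -0.25 before and -0.25 after the correction.

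**Figure D4:**
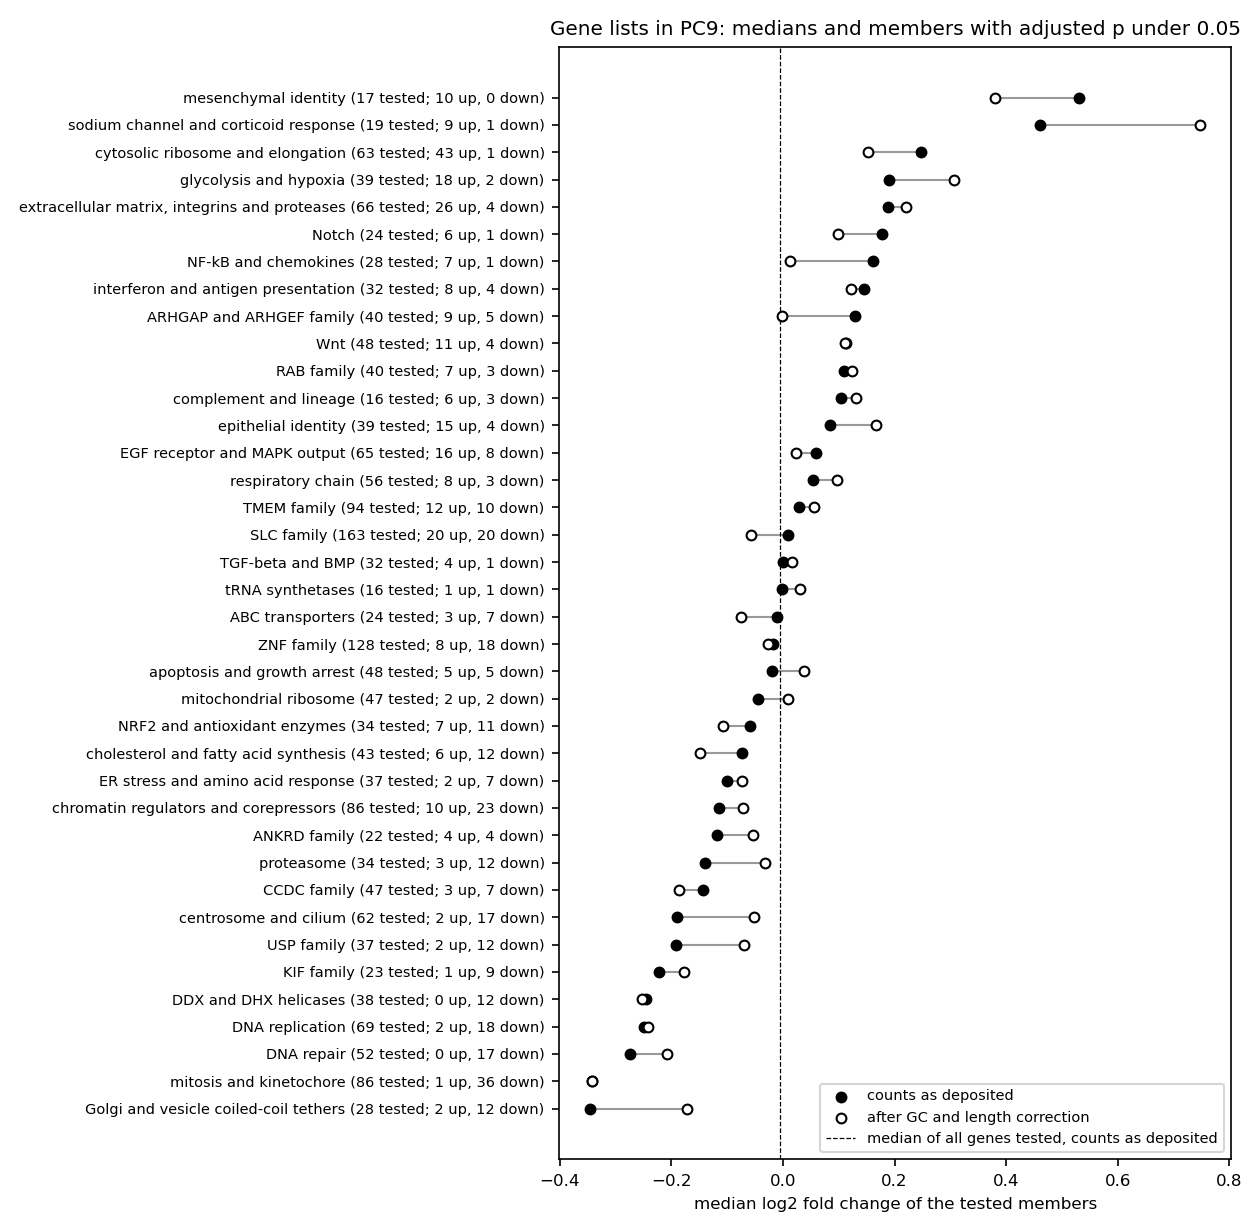
Median log2 fold change (PC9-HOXC6 over PC9-NEO) of the tested members of 38 gene lists, before (filled) and after (open) the correction for GC content and length, with the number of members tested and of members that rose or fell at an adjusted p under 0.05 as counted. The dashed line is the median of all 8419 genes, -0.0046, and the medians run from -0.35 for Golgi tethers to 0.53 for mesenchymal genes before the correction.

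Of 23 glycolytic enzymes and glucose transporters tested, 12 rose (52.2%, against 13.3% of all genes) and 0 fell as counted, and 12 and 0 after the correction. PFKM, a phosphofructokinase, passed the test only as counted (0.37 ± 0.10), and PDK1, described below, only after the correction. SLC2A3, the neuronal-type glucose transporter GLUT3, was at 39.98, 32.6 and 29.7 CPM in the PC9-NEO libraries and 70.5, 82.8 and 84.4 CPM in the PC9-HOXC6 libraries (1.23 ± 0.15, adjusted p = 1.6e-07, corrected 1.25). SLC2A1, or GLUT1, was at 296, 285 and 301 CPM in the PC9-NEO libraries and 424, 415 and 464 CPM in the PC9-HOXC6 libraries (0.57 ± 0.07, adjusted p = 3.7e-07, corrected 0.42). HK2, the inducible hexokinase (0.998 ± 0.10, adjusted p = 1.4e-08, corrected 0.91), and ENO2 (0.99 ± 0.08, adjusted p = 1e-10, corrected 0.84) nearly met the threshold of 1. Abundant enzymes moved by less, with ALDOA at 3674, 3704 and 3790.2 CPM in the PC9-NEO libraries and 4795, 4693 and 5092 CPM in the PC9-HOXC6 libraries (0.39 ± 0.05, adjusted p = 3.6e-07, corrected 0.24), and GPI (0.48 ± 0.06, adjusted p = 3.2e-07) and LDHA (0.17 ± 0.05, adjusted p = 0.013, corrected 0.38) with it. The other 11 did not pass the test as counted, GAPDH among them (0.11 ± 0.05, corrected -0.06).

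Of 16 other genes of the hypoxia response tested, 6 rose (37.5%, against 13.3% of all genes) and 2 fell (12.5%, against 14.2%). After the correction 8 rose and 2 fell. NDRG1, a stress gene of epithelia and a target of hypoxia factors, had the smallest p of all genes tested, at 536, 513 and 527 CPM in the PC9-NEO libraries and 1446, 1431 and 1488 CPM in the PC9-HOXC6 libraries (1.47 ± 0.06, adjusted p = 1.3e-17, corrected 1.34 ± 0.06). CA9, carbonic anhydrase IX (0.997 ± 0.12, adjusted p = 1.9e-07, corrected 0.81), P4HA1, a collagen prolyl hydroxylase (0.86 ± 0.11, adjusted p = 4.5e-07, corrected 1.12), EGLN3 (0.69 ± 0.11, adjusted p = 1.6e-05) and DDIT4 (0.55 ± 0.07, adjusted p = 1.1e-06) rose. HIF1A, which encodes the oxygen-regulated subunit of the factor, fell by 0.90 ± 0.10, adjusted p = 4.2e-08, corrected -0.39. PDK1, a brake on pyruvate oxidation, did not pass the test as counted (0.14 ± 0.20) and was higher after the correction (0.66, adjusted p = 0.017).

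Of 17 mesenchymal genes tested, 10 rose (58.8%, against 13.3% of all genes) and 0 fell (8 and 0 corrected), with a median of 0.53, corrected 0.38. Of the 13 members at or above the median GC content of all genes, 9 rose, while 920 of all 4180 genes there did. FN1, fibronectin, was at 1642, 1866 and 1845 CPM in the PC9-NEO libraries and 3015, 3128 and 3218 CPM in the PC9-HOXC6 libraries (0.81 ± 0.05, adjusted p = 4.4e-12, corrected 1.09 ± 0.05, which is past the threshold). AXL, a receptor tyrosine kinase (0.73 ± 0.11, adjusted p = 4.1e-06, corrected 0.60), LOXL2, a collagen crosslinking enzyme (0.57 ± 0.08, adjusted p = 4.3e-06), and TGFBI (0.45 ± 0.09, adjusted p = 0.00055) rose. The factor SNAI1 (0.53 ± 0.43) did not pass the test, and 17 of the 34 members in the table had too few counts to be tested.

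Of 66 matrix, integrin and protease genes, 26 rose (39.4%) and 4 fell (6.06%), and after the correction 28 rose and 0 fell. PLAT, tissue plasminogen activator, was the 1 call, at 85.5, 94.8 and 103 CPM in the PC9-NEO libraries and 193, 219 and 224 CPM in the PC9-HOXC6 libraries (1.16 ± 0.10, adjusted p = 2.4e-10, corrected 1.18). PLAUR, the urokinase receptor, rose by 0.57 ± 0.12, adjusted p = 0.00049. Among integrins, ITGA3 was at 1092, 1055 and 1174 CPM in the PC9-NEO libraries and 1473, 1497 and 1473 CPM in the PC9-HOXC6 libraries (0.42 ± 0.06, adjusted p = 1.2e-06, corrected 0.24), and ITGB4 (0.72 ± 0.06), ITGA5 (0.70 ± 0.08) and ITGA6 (0.40 ± 0.09, corrected 0.61) rose. ITGAV fell by 0.41 ± 0.14 as counted and was 0.33 corrected, where it did not pass the test (adjusted p = 0.088). ITGAV lost its significance without PC9-HOXC6 replicate 1 (-0.43), PC9-HOXC6 replicate 3 (-0.33), PC9-NEO replicate 2 (-0.39) or PC9-NEO replicate 3 (-0.30). The glycoproteins TNC (0.65 ± 0.11), FBLN1 (0.45 ± 0.06) and LTBP4 (0.77 ± 0.08) rose. CD44, the hyaluronan receptor, was at 496, 560.0 and 546 CPM in the PC9-NEO libraries and 625, 646 and 709.9 CPM in the PC9-HOXC6 libraries (0.31 ± 0.07, adjusted p = 0.00075, corrected 0.41).

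Of 39 epithelial genes 15 rose and 4 fell (13 and 5 corrected), and 0 were called. CDH1, E-cadherin (0.30 ± 0.07, adjusted p = 0.00069, corrected 0.24), DSP, desmoplakin (0.23 ± 0.06, adjusted p = 0.0064, corrected 0.28), CLDN3 (0.64 ± 0.12), CRB3 (0.76 ± 0.18), TJP3 (0.75 ± 0.08) and the epithelial factor ELF3 (0.64 ± 0.08) rose. EPCAM, an epithelial adhesion protein (-0.33 ± 0.09, adjusted p = 0.0044, corrected -0.24), fell. The keratins KRT18 (-0.08 ± 0.05) and KRT7 (-0.05 ± 0.05) did not pass the test as counted and were lower after the correction (-0.24 and -0.25, adjusted p = 8.2e-05 and 7e-05).

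Transporters of cystine and of large neutral amino acids fell. SLC7A11, the cystine and glutamate exchanger xCT, was at 88.3, 80.8 and 86.3 CPM in the PC9-NEO libraries and 19.4, 16.7 and 21.97 CPM in the PC9-HOXC6 libraries (-2.09 ± 0.15, adjusted p = 1.7e-11, corrected -1.42), and 865 bases of its exons overlap an antisense gene. Its partner chain SLC3A2 was at 306, 351 and 347 CPM in the PC9-NEO libraries and 271, 240.0 and 273 CPM in the PC9-HOXC6 libraries (-0.35 ± 0.08, adjusted p = 0.00091, corrected -0.50). SLC7A5, or LAT1, which shares that chain, was at 549.7, 514 and 571 CPM in the PC9-NEO libraries and 373, 366 and 369.7 CPM in the PC9-HOXC6 libraries (-0.56 ± 0.07, adjusted p = 1.6e-07, corrected -0.75). Among 20 genes of the amino acid response, 5 fell and 0 rose, TRIB3, a pseudokinase, being another (-0.37 ± 0.09). ATF4, the factor of that response, did not pass the test as counted (-0.08 ± 0.07) and was lower after the correction (-0.25, adjusted p = 0.0058), and ASNS (-0.20 ± 0.11) did not pass it. Of the chaperones of the endoplasmic reticulum, HSP90B1 fell (-0.74 ± 0.07, adjusted p = 2.4e-09, corrected -0.37), and HSPA5 did not pass the test as counted (0.13 ± 0.06) but was higher after the correction (0.26, adjusted p = 0.0022).

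Targets of NRF2, the factor of the antioxidant response, moved both ways. Of 34 tested, 11 fell and 7 rose (12 and 5 corrected). NFE2L2, which encodes NRF2, fell by 0.90 ± 0.15, adjusted p = 2.6e-05, corrected -0.60. The glutathione gene GCLM (-0.84 ± 0.12), the malic enzyme ME1 (-0.78 ± 0.12), AKR1C2 (-0.90 ± 0.07) and the exporter ABCC2, at 204, 246 and 229 CPM in the PC9-NEO libraries and 107, 102 and 116 CPM in the PC9-HOXC6 libraries (-1.05 ± 0.09, adjusted p = 7e-10, corrected -0.97), fell. ABCC2 lost its call without PC9-NEO replicate 2 (-0.99). The ferritin chains went opposite ways. FTH1, the heavy chain, was at 5963, 6104 and 6225 CPM in the PC9-NEO libraries and 7714, 7781 and 8707 CPM in the PC9-HOXC6 libraries (0.40 ± 0.05, adjusted p = 2e-07, corrected 0.30), and FTL, the light chain, was at 4598, 4502 and 4817 CPM in the PC9-NEO libraries and 3448, 3558 and 3585 CPM in the PC9-HOXC6 libraries (-0.39 ± 0.05, adjusted p = 2.3e-07, corrected -0.55). GSTM1 was called higher (1.04 ± 0.21, adjusted p = 0.00028) but not after the correction (0.91). GSTM1 lost its call without PC9-HOXC6 replicate 1 (0.98) or PC9-NEO replicate 2 (0.80). AKR1C2, GSTM1 and the ferritins have close relatives or processed copies, so their counts are uncertain.

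Among lipid genes the fatty acid desaturases fell. SCD, stearoyl-CoA desaturase, was at 1685, 1810.5 and 1844 CPM in the PC9-NEO libraries and 1065, 1001 and 1047 CPM in the PC9-HOXC6 libraries (-0.78 ± 0.06, adjusted p = 1.4e-11, corrected -0.78). FADS1 (-0.64 ± 0.08, adjusted p = 6.2e-07, corrected -0.73) and FADS2 (-0.57 ± 0.10, adjusted p = 4.5e-05, corrected -0.74) also fell. In the sterol pathway SQLE, squalene epoxidase (-0.29 ± 0.14), did not pass the test. NPC2, which carries cholesterol out of lysosomes, rose by 0.40 ± 0.06, adjusted p = 1.1e-05, corrected 0.49. Of 43 genes of both pathways, 12 fell and 6 rose (11 and 4 corrected).

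Transcripts of the main EGF receptor genes changed by small amounts, and RNA levels do not measure the signalling. EGFR, the receptor that drives PC9, was at 1209, 1309 and 1343 CPM in the PC9-NEO libraries and 1547, 1564 and 1506 CPM in the PC9-HOXC6 libraries (0.26 ± 0.06, adjusted p = 0.00074, corrected 0.30). ERBB2, its partner (0.15 ± 0.07, corrected -0.01), and MYC (-0.10 ± 0.10) did not pass the test. Of 65 genes 16 rose (24.6%, against 13.3% of all genes) and 8 fell (12.3%, against 14.2%), CCND1, described above, among them. The immediate early gene KLF6 had the largest rise of the list (0.87 ± 0.18, adjusted p = 0.00061, corrected 0.90), and ID1, an inhibitor of differentiation factors, rose too (0.68 ± 0.16, adjusted p = 0.002, corrected 0.50). PIK3CA was called lower (-1.02 ± 0.20, adjusted p = 0.00026), with a corrected change of -0.38 that did not pass the test (adjusted p = 0.18). PIK3CA lost its call without PC9-HOXC6 replicate 3 (-0.88), PC9-NEO replicate 1 (-0.89) or PC9-NEO replicate 2 (-0.90).

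In the Wnt pathway, APC, which marks beta-catenin for destruction, was at 22.8, 22.8 and 20.5 CPM in the PC9-NEO libraries and 4.47, 3.04 and 5.65 CPM in the PC9-HOXC6 libraries (-2.21 ± 0.30, adjusted p = 1.7e-06, corrected -1.801). WNT7A was at 21.1, 30.05 and 30.96 CPM in the PC9-NEO libraries and 59.1, 49.4 and 57.1 CPM in the PC9-HOXC6 libraries (1.01 ± 0.16, adjusted p = 2.3e-05, corrected 0.86), and the ligand WNT4 (1.06 ± 0.24, adjusted p = 0.0014), the secreted inhibitor SFRP1 (1.095 ± 0.12, adjusted p = 3.7e-08, corrected 0.995) and the factor TCF7L2 (0.94 ± 0.20, adjusted p = 0.00068, corrected 0.96) rose. CTNNB1, beta-catenin itself, did not pass the test as counted (0.10 ± 0.07) and was higher after the correction (0.23, adjusted p = 0.017). Of the calls, SFRP1 lost its call without PC9-HOXC6 replicate 2 (0.9999), WNT4 lost its call without PC9-NEO replicate 3 (0.96) and WNT7A lost its call without PC9-HOXC6 replicate 1 (0.98), PC9-HOXC6 replicate 3 (0.997) or PC9-NEO replicate 1 (0.87). Of 48 genes 11 rose and 4 fell (8 and 3 corrected).

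NOTCH1 was at 92.2, 103 and 105 CPM in the PC9-NEO libraries and 158, 159 and 163 CPM in the PC9-HOXC6 libraries (0.68 ± 0.09, adjusted p = 2.4e-06, corrected 0.58), and of 24 Notch genes 6 rose and 1 fell, while JAG1, a ligand (0.17 ± 0.13), did not pass the test. Of 32 TGF-beta and BMP genes 4 rose (12.5%, close to the 13.3% of all genes) and 1 fell. SMAD3 was at 173, 214 and 185 CPM in the PC9-NEO libraries and 278, 248 and 285 CPM in the PC9-HOXC6 libraries (0.51 ± 0.09, adjusted p = 3.6e-05, corrected 0.43), and SKIL, which holds SMADs in check, was called lower (-1.102 ± 0.21, adjusted p = 0.00015) but not after the correction (-0.49, adjusted p = 0.084). SKIL lost its call without PC9-HOXC6 replicate 1 (-0.88) or PC9-NEO replicate 2 (-0.94). CDKN1A, the cell cycle inhibitor p21, rose by 0.59 ± 0.13, adjusted p = 0.00078, corrected 0.41. Of 48 genes of apoptosis and growth arrest 5 rose and 5 fell (10.4% each, below the 13.3% and 14.2% of all genes). BAX, which opens mitochondria, did not pass the test as counted (-0.10 ± 0.10) and was lower after the correction (-0.28, adjusted p = 0.034). CASP8AP2, a regulator of caspase 8 and of histone genes, fell by 1.94 ± 0.35, adjusted p = 9.7e-05, corrected -1.43.

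Of 32 interferon and antigen presentation genes 8 rose and 4 fell (6 and 3 corrected). B2M, the light chain of MHC class I, was at 231, 281 and 279 CPM in the PC9-NEO libraries and 360.0, 383 and 393 CPM in the PC9-HOXC6 libraries (0.52 ± 0.08, adjusted p = 7.6e-06, corrected 0.90). IRF2, an interferon regulatory factor (0.96 ± 0.17, adjusted p = 8.4e-05, corrected 0.96), rose, and MX1, an antiviral GTPase (0.23 ± 0.27), did not pass the test. Of 28 NF-kB and chemokine genes 7 rose and 1 fell (4 and 2 corrected). Of the 7, 6 were among the 19 members at or above the median GC content, where 920 of all 4180 genes rose. LCN2, lipocalin 2, was at 761, 745 and 802 CPM in the PC9-NEO libraries and 1052, 1070.1 and 1102 CPM in the PC9-HOXC6 libraries (0.48 ± 0.06, adjusted p = 2e-07, corrected 0.32), and BCL3 rose by 0.76 ± 0.10, adjusted p = 1.2e-06. Of 16 genes of complement and lung lineage 6 rose and 3 fell (3 and 2 corrected), and all 6 were among the 12 members at or above the median GC content. C3, the central complement component, was at 1017, 1000.3 and 1073 CPM in the PC9-NEO libraries and 1653, 1615 and 1602 CPM in the PC9-HOXC6 libraries (0.66 ± 0.05, adjusted p = 2.5e-10, corrected 0.50). CD46, a complement regulator, fell by 0.28 ± 0.08, adjusted p = 0.0075 as counted and was higher after the correction (0.23, adjusted p = 0.022). As counted, CD46 lost its significance without PC9-HOXC6 replicate 1 (-0.23) or PC9-NEO replicate 2 (-0.20).

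A list of sodium channel, corticoid response and membrane genes held 6 calls among 19 tested (31.6%, against 0.962% of all genes called higher). All 6 were higher: AVPR2, SGK1, SCNN1G, PDZK1IP1, AQP3 and MALL. The list was drawn up with earlier results of these data known, and the study itself reported SGK1 and MALL. Its share of calls is therefore not independent evidence. MALL, a lipid raft protein, and PDZK1IP1, a membrane protein, are not themselves channels or corticoid receptors. Of the 6 called genes only AVPR2 and SGK1 were called after the correction. TSC22D3, a glucocorticoid-induced gene (0.94 ± 0.19, adjusted p = 0.00029, corrected 0.81), and MAL2 (0.41 ± 0.07, adjusted p = 1.9e-05, corrected 0.75) rose in both fits. AQP3, a water and glycerol channel, was at 27.2, 23.8 and 22.2 CPM in the PC9-NEO libraries and 42.2, 56.96 and 50.2 CPM in the PC9-HOXC6 libraries (1.02 ± 0.17, adjusted p = 3.7e-05, corrected 0.84). SCNN1G, a subunit of the sodium channel, was near the floor at 3.89, 2.07 and 1.74 CPM in the PC9-NEO libraries and 6.46, 7.59 and 5.96 CPM in the PC9-HOXC6 libraries (1.36 ± 0.47, adjusted p = 0.028), and did not pass the test after the correction (1.23, adjusted p = 0.058). NEDD4L, a ligase that removes the channel (-0.13 ± 0.15), did not pass the test. Of the calls, AQP3 lost its call without PC9-HOXC6 replicate 2 (0.95) or PC9-NEO replicate 3 (0.95) and SCNN1G lost its call without PC9-HOXC6 replicate 1 (1.37), PC9-HOXC6 replicate 2 (1.29), PC9-HOXC6 replicate 3 (1.46), PC9-NEO replicate 2 (1.25) or PC9-NEO replicate 3 (1.12).

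No HOX gene tested passed the test. Of the 25 HOX genes listed, 8 had enough counts, with log2 fold changes from -0.36 to 0.54 and 0 at an adjusted p under 0.05 (1 at an unadjusted p under 0.05, HOXB6, and 0 by DESeq2). MEIS3 was the 1 TALE cofactor of 5 tested that rose (0.36 ± 0.10, adjusted p = 0.011), and it did not pass the test after the correction (adjusted p = 0.3). MEIS3 lost its significance without PC9-HOXC6 replicate 3 (0.30). HOX-type elements in promoters were sparse. TAATTA was found in 0 of the 58 genes called higher that had a promoter, against 1.43% of tested genes, and TGATTNAT, a HOX and PBX element, in 1 (1.72%, against 1.07%), on either strand of the 250 bases before the start.

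Of 20 genes listed from the study, 15 were in the table and 9 had enough counts in PC9 to be tested. The genes that were not tested have no value here. CEACAM6, an adhesion protein of epithelia, was at 23.3, 22.8 and 21.4 CPM in the PC9-NEO libraries and 47.2, 44.8 and 44.9 CPM in the PC9-HOXC6 libraries (1.02 ± 0.17, adjusted p = 2.8e-05, corrected 1.03), and it shares sequence with other CEACAM genes. MALL was at 18.3, 15.5 and 18.8 CPM in the PC9-NEO libraries and 37.2, 37.97 and 32.6 CPM in the PC9-HOXC6 libraries (1.01 ± 0.19, adjusted p = 0.0002, corrected 0.89). Of the calls, CEACAM6 lost its call without PC9-NEO replicate 3 (0.98) and MALL lost its call without PC9-HOXC6 replicate 1 (0.99), PC9-HOXC6 replicate 2 (0.99) or PC9-NEO replicate 2 (0.93). SGK1, APC, ANKRD12 and ENSG00000129270 are described above. WNT6 (0.28 ± 0.11), FGF2 (0.25 ± 0.25) and MMP9 (-0.69 ± 0.38) did not pass the test as counted, and FGF2 was higher after the correction (0.74, adjusted p = 0.036). The study took FGF2 and MMP9 from earlier work on other cancers and named WNT6 from A549-HOXC6 only, so WNT6 was not a PC9 result there. It writes FGF2 out as a growth factor receptor, while the value here is that of the gene with the symbol FGF2. It chose the other genes on libraries that include these, so the values of those others are not independent evidence.

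Zinc finger genes of the ZNF family had 10 of 128 members called lower and 0 higher (7.81%), and 3 after the correction. Of the 10, 9 lay below the median GC content, as did 289 of the 300 called lower over all genes tested. ZNF638 fell most among the ZNF genes with a mean over 10 CPM, from 60.5, 64.8 and 57.1 to 17.4, 21.3 and 20.1 CPM (-1.64 ± 0.16, adjusted p = 9.3e-09, corrected -1.24), and ZNF496 rose by 0.56 ± 0.09, adjusted p = 1e-05, corrected 0.53. Kinesins (KIF) had 7 of 23 called lower and ubiquitin-specific proteases (USP) 7 of 37, with 4 and 3 called after the correction (17.4% and 8.11%, against 1.48% of all genes). The 3 were USP16, USP45 (-2.15 ± 0.39, adjusted p = 9.1e-05) and USP53 (-1.74 ± 0.34, adjusted p = 0.00023). USP34, a large deubiquitinase, was at 123, 119.7 and 121 CPM in the PC9-NEO libraries and 48.7, 34.9 and 57.7 CPM in the PC9-HOXC6 libraries (-1.296 ± 0.13, adjusted p = 7.1e-09, corrected -0.92). The CCDC family had 4 of 47 called lower and 0 after the correction.

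Solute carriers (SLC) had 1 of 163 called higher and 4 lower (0.613% and 2.45%, against 0.962% and 3.56% of all genes), with 20 rising and 20 falling. SLC6A6, the taurine transporter, rose by 0.39 ± 0.07, adjusted p = 5.4e-05, and SLC4A2, an anion exchanger, fell by 0.26 ± 0.06, adjusted p = 0.0025. TMEM genes had 2 of 94 called higher (2.13%) and 0 lower. RAB GTPases had 1 higher and 2 lower of 40 (2.5% and 5%), with RAB27B, of secretory vesicles, at 14.99, 27.5 and 27.04 CPM in the PC9-NEO libraries and 6.46, 11.4 and 3.14 CPM in the PC9-HOXC6 libraries (-1.94 ± 0.34, adjusted p = 6.2e-05, corrected -1.32), and RAB3A, of the same secretory group, at 5.55, 4.66 and 6.105 CPM in the PC9-NEO libraries and 11.4, 8.35 and 15.4 CPM in the PC9-HOXC6 libraries (1.17 ± 0.34, adjusted p = 0.01, corrected 0.98). RAB3A lost its call without PC9-HOXC6 replicate 3 (0.89). Regulators of small GTPases (ARHGAP and ARHGEF) had 9 rising and 5 falling of 40. ARHGEF39 rose by 0.79 ± 0.08, adjusted p = 2.2e-08 and ARHGAP5 was called lower (-1.07 ± 0.12, adjusted p = 1.2e-07, corrected -0.33). ARHGAP5 lost its call without PC9-HOXC6 replicate 3 (-0.95) or PC9-NEO replicate 2 (-0.98). ABC transporters had 3 rising and 7 falling of 24, and ANKRD genes 4 and 4 of 22. Of 16 cytosolic and mitochondrial tRNA synthetases 1 rose and 1 fell.

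Several of the PC9 changes differed from those of the same vectors in A549, by an interaction test over all 12 libraries (differences are PC9 minus A549, on the log2 scale). Of 9229 genes tested, 220 (2.38%) differed by more than 1 upwards in PC9 and 255 (2.76%) downwards. Of the 275 genes called lower in PC9 that were tested in both lines, 115 were also called lower in A549. That is 41.8% of the PC9 genes and 28.1% of the 409 A549 genes, against 5.14% of all genes. Of 62 called higher, 6 were called higher there (9.68%, and 5.66% of 106, against 1.33% of all genes). After the correction 14 of 115 called lower (12.2%, against 1.65% of all genes) and 8 of 57 called higher (14.04%, against 1.40%) were shared. Of the 81 genes called higher in PC9, 36 had a change that was larger by more than 1 there, and of the 300 called lower 33 had one that was more negative by more than 1. These genes were chosen for their change in PC9, which enters the difference, so an excess on the PC9 side is partly built in. Of them, 19 called higher and 25 called lower had too few counts to be tested in A549. At any size, among the 8419 genes tested in PC9, 8.97% were relatively higher and 11.8% relatively lower in PC9 (11.6% and 11.1% after the correction).

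Of 69 replication genes 26 were relatively lower in PC9 and 0 higher (24 and 1 after the correction). Of 86 mitosis genes 25 were relatively lower and 0 higher (26 and 0 corrected). Of 63 ribosome and elongation genes 34 were relatively higher and 0 lower (52 and 0 corrected), while of 47 mitochondrial ribosome genes 1 was relatively higher and 7 lower. The medians of the replication, mitosis and cytosolic ribosome lists were -0.25, -0.34 and 0.25 in PC9 and 0.22, -0.11 and -0.09 in A549.

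MCM7 changed by -0.22 in PC9 and 0.77 in A549, a difference of -1.04 ± 0.12 (adjusted p = 2.2e-08). For PCNA the values were -0.58 and 0.09 (difference -0.71, adjusted p = 3.8e-05), for CCND1 -0.54 and 0.17 (difference -0.76, adjusted p = 3.3e-06), and for MKI67 -1.198 and -0.41 (difference -0.83, adjusted p = 2e-05). Genes of amino acid transport parted in the same way. SLC7A5 had -0.56 and 0.45 (difference -1.06, adjusted p = 4.4e-10), and SLC3A2 -0.35 and 0.71 (difference -1.11, adjusted p = 2.1e-08). Of 34 NRF2 and antioxidant genes 17 were relatively lower in PC9 and 3 higher.

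Among the genes that rose in PC9, NDRG1 changed by 0.09 in A549 (difference 1.34 ± 0.10, adjusted p = 1.2e-12), MRC2 by 0.21 (difference 2.45, adjusted p = 3.8e-06), UNC5B by -0.26 (difference 1.94, adjusted p = 0.00027) and CDC42EP5 by -0.42 (difference 2.001, adjusted p = 0.00056). UNC5B was low in A549, with means of 5.79 CPM in A549-NEO and 4.82 CPM in A549-HOXC6. CDC42EP5 was low there too (4.45 and 3.33 CPM), so the A549 changes of both are poorly measured. MRC2 was at 618 and 715 CPM in A549, against a mean of 1.83 CPM in PC9-NEO. ALDH1A1, which fell in PC9, was at -0.04 in A549 (difference -1.88, adjusted p = 2.6e-10). SGK1 rose in both lines, by 1.52 and 2.02, and the difference did not pass the test (adjusted p = 0.099). The cell lines were grown in different media, so line and medium cannot be told apart.

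**Figure D5:**
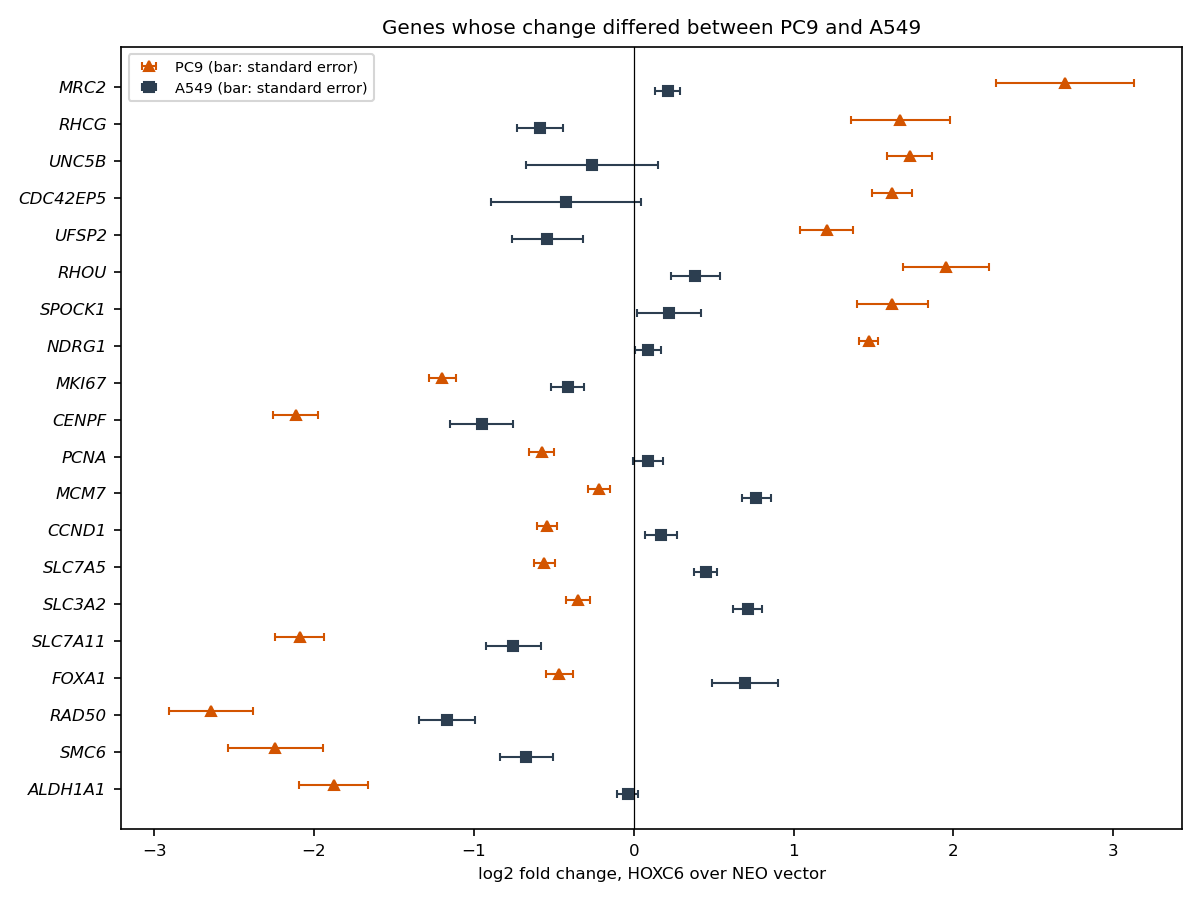
Log2 fold change (HOXC6 over NEO vector) of 20 genes in PC9 (orange triangles) and A549 (dark squares), with bars for the standard error from the fit over the 6 libraries of each line. The difference between the lines passed the interaction test at an adjusted p under 0.05 in each gene shown, with MCM7, CCND1, SLC7A5, SLC3A2 and FOXA1 below 0 in PC9 and above 0 in A549.

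Some of these counts can hold reads of other genes. In the annotation used here, exons of 3904 of the 8419 genes tested overlap a gene on the opposite strand, and the strand setting of the counting is not given in the sources used here. Among the genes above, the overlap is 676 bases for MRC2, 552 for TUBB4A, 668 for PHIP, 318 for RIF1 and 392 for MCM7.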

How the data were processed

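Total RNA of the PC9 libraries was taken with Trizol, poly(A) RNA was captured on oligo(dT) beads, and directional libraries were sequenced as read pairs. The authors deposited raw counts per gene for all 12 libraries in 1 table, made with bcl2fastq 2.19, HISAT2 2.1.0 and HTSeq 0.9.1 on GRCh37.p13 per the labels, with DESeq2 also named. The annotation release and the strand setting are not given in the sources used here. Counting without regard to strand would add antisense reads, and reads of near-identical copies are usually left out. The table held 12584 genes after 1 incomplete line was left out, and 12463 were matched to GENCODE v44lift37 by ID.

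The counts of the 6 PC9 libraries were filtered for low values, scaled by TMM and fitted with edgeR 4.0.16 in R 4.3.3 (quasi-likelihood test, Benjamini-Hochberg adjustment over all genes tested). Calls needed an adjusted p under 0.05 and an absolute log2 fold change above 1. The correction fitted each library's deviation in log2 CPM as smooth functions of transcript GC content and log2 length (mgcv 1.9.3) and passed the fit on as offsets. The comparison with A549 was an interaction term over 12 libraries. On simulated counts with 1.5 on the log2 scale in 197 tested genes, 192 were recovered with 1 false call among 8325 genes. With a GC trend added, 180 false calls arose without the correction and 3 with it, among 8294 genes. The added trend was a straight line of 0.05 on the log2 scale per percent of GC content. In the data the group medians rose from -0.47 in the lowest GC group to 0.026 in group 5 and only to 0.18 in group 10. The simulated trend was thus stronger at high GC content, and its numbers of false calls do not carry over to these data. Alternatives used DESeq2 1.42.0, other scalings, filters and thresholds, equal depth, a replicate block and fits without each library.

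Named genes were the 15 with the largest changes in each direction among called genes with separate groups and at least 1 CPM, the 10 largest in each direction still called after the correction with at least 10 CPM, up to 4 called and 4 abundant changed members of each list, the genes the study names, and genes that define a pathway. The members and lists were chosen with earlier results of these data known, and genes outside this rule were named after their values were seen. Some genes that meet the rule are not reported here. Promoters came from RefSeq on GRCh38.p14. Libraries of 1 group differed from each other by more than sampling noise (chi-square per degree of freedom 1.58 to 2.78), so none was counted as a repeat. Floors cover counting error only. Of the series, A549 was used only for the comparison of changes.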

Additional observations from a re-analysis of the deposited data

Results flagged for a closer look

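The changes of 52 of the genes named here differed between PC9 and A549 by more than 1 on the log2 scale, by the interaction test of edgeR at an adjusted p under 0.05. Differences are given as PC9 minus A549. Many of these genes were named for their change in PC9, which enters the difference. In 27 genes the difference was negative. Among genes of DNA replication, repair and division it was negative in SMC6 (-1.62), RAD50 (-1.51), SMC4 (-1.46), FEN1 (-1.39), CHAF1A (-1.26), CENPF (-1.22), MCM4 (-1.19), ASPM (-1.19), MCM7 (-1.04), MCM2 (-1.02) and BRCA1 (-1.01). Among genes of transport, redox and lipid metabolism it was negative in ALDH1A1 (-1.88), SLC7A11 (-1.39), FADS2 (-1.31), SLC3A2 (-1.11) and SLC7A5 (-1.06). Of the hypoxia response, EGLN3 had a negative difference (-1.05). The others were WNT6 (-3.90), ZNF268 (-3.31), SCNN1G (-2.36), CEACAM6 (-2.26), TRIP11 (-1.84), EIF4G2 (-1.49), BAZ2B (-1.43), USP16 (-1.31), FOXA1 (-1.21) and ARHGAP5 (-1.003). Of these, WNT6, CEACAM6, SCNN1G and EGLN3 had log2 fold changes above 0 in PC9, and their rise in A549 was larger.

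In 25 genes the difference was positive. Among genes of receptors, small GTPases and the cytoskeleton it was positive in LRP1 (1.11), TUBB4A (1.35), ARHGAP4 (1.37), RHOU (1.52), UNC5B (1.94), PLA2R1 (1.96), CDC42EP5 (2.001), RAB3A (2.06), MRC2 (2.45) and UNC5A (2.93). Among genes of glucose and hypoxia, stress and growth control it was positive in TCF7L2 (1.14), PIM1 (1.18), ENO2 (1.25), IRF2 (1.26), NDRG1 (1.34), KLF6 (1.36), CDKN1A (1.52) and P4HA1 (1.54). The others were LTBP4 (1.22), CYBA (1.22), SPOCK1 (1.35), TMEM63C (1.56), UFSP2 (1.71), PNPLA7 (2.14) and RHCG (2.20). All of these differences kept their direction and an adjusted p under 0.05 with GC content and length corrected for. WNT6, ZNF268 and UNC5A had too few counts to be tested within A549 alone, and UNC5B and CDC42EP5 were low there.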

How the results depend on the processing

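The counts of 81 genes called higher and 300 called lower stayed within 1.5 times under DESeq2 (72 and 270), all 12 libraries in 1 model (106 and 318), RLE size factors (82 and 297), library size alone (64 and 365), no low-count filter (112 and 320), an adjusted p under 0.01 (70 and 262) and libraries thinned to equal depth (78 and 275). Without each library in turn they ranged from 78 to 109 and from 267 to 315. At least 10 counts in every library left 52 and 181, which fewer genes tested can lower, dropping the fold criterion gave 1123 and 1193, and testing beyond 1 on the log2 scale (glmTreat) gave 8 and 37. The correction for GC content and length lowered the calls to 71 and 125, and to 67 and 127 with the replicate block. The corrected calls were 69 and 128 for GC content alone, 66 and 111 for the union of exons, 58 and 106 by DESeq2 and 67 to 81 and 112 to 128 without each library. The replicate numbers shared no deviation (correlations of same-numbered libraries 0.018, -0.012 and 0.057), so they do not pair the samples, and the replicate block gave 83 genes called higher, changing the number called lower by less than 1.5 times. The 475 genes that differed from A549 were 393 by DESeq2, 474 after the correction, 488 with the block and 438 to 551 without each library.

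Of 228 named genes, 222 kept their direction under all these settings. The others changed sign after the correction, without and with the block: RAD21 to 0.35 and 0.36, CD46 to 0.23 and 0.24, ITGAV to 0.33 and 0.33, CCNB1 to 0.067 and 0.072, GAPDH to -0.062 and -0.063, and ERBB2 to -0.011 and -0.017. The cause was not tested. Libraries of 1363070 to 3286577 counts give little precision under about 5 CPM.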

Other observations

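Many of the genes with the smallest p-values stood outside the lists above. The genes in these paragraphs were taken from the 40 smallest p-values after the values had been seen. RANBP2, a large nucleoporin, was at 100.5, 116 and 96.8 CPM in the PC9-NEO libraries and 28.3, 22.8 and 25.4 CPM in the PC9-HOXC6 libraries (-2.02 ± 0.14, adjusted p = 7.8e-12, corrected -1.52). PHF3, which binds RNA polymerase II (-2.15 ± 0.18, adjusted p = 3.1e-10, corrected -1.41), BCLAF1 (-1.77 ± 0.15, adjusted p = 3.7e-10, corrected -1.19), and THOC2, of the mRNA export complex TREX (-1.58 ± 0.13, adjusted p = 9.6e-11, corrected -1.15), were called lower in both fits. U2SURP, a splicing protein, was called lower without the correction only (-1.56 ± 0.13, adjusted p = 3.5e-10, corrected -0.96). EIF5B, which joins ribosomal subunits, was likewise called without the correction only, at 171, 154 and 141 CPM in the PC9-NEO libraries and 62.6, 67.6 and 58.7 CPM in the PC9-HOXC6 libraries (-1.32 ± 0.11, adjusted p = 2.2e-10, corrected -0.89), and EIF4G2 (-0.84 ± 0.07, adjusted p = 2.1e-10, corrected -0.51) and EIF3A (-0.83 ± 0.07, adjusted p = 1.1e-09, corrected -0.65) fell by less. HSP90AA1, the inducible cytosolic HSP90, was at 2496, 2623 and 2272 CPM in the PC9-NEO libraries and 1168, 1306 and 1278 CPM in the PC9-HOXC6 libraries (-0.98 ± 0.06, adjusted p = 4.5e-13, corrected -0.94).

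Among those that rose, IGFBP3, which binds insulin-like growth factors, was at 582, 659 and 637 CPM in the PC9-NEO libraries and 1182, 1148 and 1292 CPM in the PC9-HOXC6 libraries (0.95 ± 0.06, adjusted p = 3.6e-12, corrected 0.82). LRP1, an endocytic receptor for protease and inhibitor complexes, was at 344, 329 and 331 CPM in the PC9-NEO libraries and 623, 599 and 629 CPM in the PC9-HOXC6 libraries (0.89 ± 0.06, adjusted p = 1.9e-11, corrected 0.87). UNC5A, a netrin receptor like UNC5B, rose by 1.37 ± 0.11, adjusted p = 6.9e-11, corrected 1.17. CYBA, a subunit of NADPH oxidases (1.52 ± 0.13, adjusted p = 2.7e-10, corrected 1.33), and PIM1, a survival kinase (0.96 ± 0.09, adjusted p = 1.2e-09, corrected 0.79), rose as well. In all of these genes the PC9-HOXC6 libraries were separate from the PC9-NEO libraries.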
